A study of Bos taurus with 9 samples.

Results

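Which transcripts change in adrenal chromaffin cells after treatment with tumour necrosis factor alpha (TNF) was asked by comparing treated with untreated cultures. The comparison rests on 6 of the 9 Affymetrix bovine arrays of the series. They were chosen by title, 3 arrays of TNF-treated cells and 3 arrays of untreated cells. The TNF group received 10 nM TNF for 6 h. The untreated group carried no agent, and its labels give no time. The remaining 3 arrays, from cells given 100 nM of the neuropeptide PACAP for 6 h, entered the estimate of the spread and are shown for reference. The labels describe primary cultures from the digested medulla of bovine adrenal glands, purified by differential plating and kept in medium with serum and cytosine arabinoside, an inhibitor of dividing cells. That description stands on the treated samples only. The number of animals is not given, and the design text calls the arrays technical repeats. The p-values below thus reflect array-to-array variation, possibly technical in origin.

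Chromaffin cells are the catecholamine-secreting cells of the adrenal medulla, and they store peptides and hormones together in dense granules. TNF is released mainly by macrophages and other immune cells. It binds receptors on the cell surface that activate the transcription factor NF-kappaB and stress-activated kinases, and within hours this raises genes for chemokines, adhesion molecules and inhibitors of the pathway itself. Which of these genes the measured probesets belong to could not be read here, because the probeset IDs were not paired with gene names. The culture's labelled cell type could not be checked against marker genes for the same reason. The results are given by probeset, a set of short probes designed on 1 transcript sequence, and by groups of probesets. In RNA from a whole culture, a change in the number of cells of a type and a change in RNA per cell cannot be told apart.

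All values are log2 expression levels, so a difference of 1 is a change of 2-fold. A probeset was called changed when its adjusted p was under 0.05 in limma, a linear model that shares information on spread across probesets, with Benjamini-Hochberg adjustment over all 24016 probesets tested. By this rule 458 probesets differed between TNF-treated and untreated cells, 1.91% of those tested. Rises made up 320 of them (1.33% of those tested) and falls 138 (0.575%). The rises reached much larger sizes than the falls. At least 8-fold rises were called for 9 probesets, 4- to 8-fold rises for 23, 3- to 4-fold rises for 27 and 2- to 3-fold rises for 70. Those of at least 2-fold, called strong rises here, thus numbered 129, or 0.537% of the probesets tested. Falls of 2- to 3-fold were called for 8 probesets (0.0333%), and no called fall was larger. The remaining calls were small, with 191 rises and 130 falls under 2-fold, of which 81 rises and 74 falls were under 1.5-fold.

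The number of small calls depended on the arrays used, while many of the strong rises were called throughout. Under a replicate block the calls were 674 rises and 606 falls. Among the untreated arrays, leaving out replicate 1 gave 116 rises and 15 falls, leaving out replicate 2 gave 108 and 12, and leaving out replicate 3 gave 411 and 310. Among the TNF arrays, the fit had 124 rises and 18 falls when replicate 1 was dropped and 107 and 16 when replicate 2 was. PACAP arrays enter the spread alone, and dropping their replicate 1 or 2 gave 236 and 89 or 212 and 72. The 129 strong rises became 81 and 78 when untreated replicate 1 or 2 was dropped, and 80 and 75 when TNF replicate 1 or 2 was; the 8 strong falls became 3 and 3, and 4 and 3, in those fits and 28 on dropping untreated replicate 3. The same strong rises were followed through 19 other settings of the fit, and 63 of the 129 were called in each of them. Of the 191 smaller rises 11 were, of the 8 falls of at least 2-fold 2 were, and of the 130 smaller falls 1 was. With the replicate block, all 129 strong rises and all 8 strong falls of the unblocked fit were still called. So were all 191 smaller rises and all 130 smaller falls, so that setting did not set strong calls apart from small ones. When replicates 1 and 2, which resembled each other closely, were averaged before that block was fitted, 86 of the 129 and 4 of the 8 were called, and of the smaller rises and falls 18 of 191 and 5 of 130.

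The probeset with the largest rise stood at 5.63, 5.50 and 5.64 on the untreated arrays and at 9.92, 9.93 and 8.76 on the TNF arrays. The untreated arrays lay close together and below the median of all probesets, and TNF replicate 3 was the lowest of the TNF arrays, though far above every untreated array. By limma it rose 15.4-fold, by 3.94 ± 0.27 (log2, SE), at an adjusted p of 0.000276. On the PACAP arrays the level was 5.65, 5.51 and 5.83. Those arrays lay with the untreated ones, and the level with TNF was higher than that with PACAP by 3.87 (limma adjusted p = 9.75e-05).

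The probeset with the second largest rise started from a higher level and reached one of the higher levels on the arrays. Its untreated values were 8.08, 8.16 and 8.94, its TNF values 12.43, 12.34 and 12.13. Here untreated replicate 3 was the highest of the untreated arrays, and the TNF arrays were close together. The rise was 3.91 (SE 0.21), or 14.99-fold (limma adjusted p = 7.79e-05). The PACAP arrays, at 7.82, 7.96 and 7.67, were each below the untreated arrays, a difference that did not pass the test (limma adjusted p = 0.107).

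**Figure D1:**
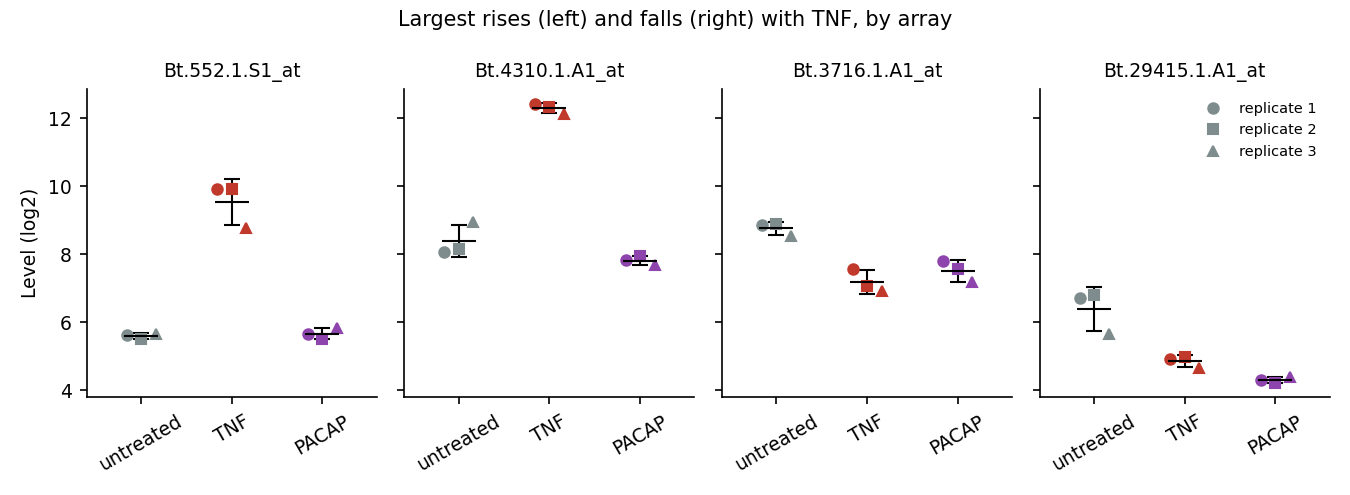
Log2 level on each of the 9 arrays for the 2 probesets with the largest called rise and the 2 with the largest called fall with TNF. Symbols mark the replicate number, horizontal bars the group mean and error bars the SD (n = 3). For each of these probesets the 3 TNF arrays lie apart from the 3 untreated arrays. On the PACAP arrays the rising probesets stay near or below the untreated level, and the falling probesets are lower than in untreated cells.

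The following ranks showed that strong rises came in several shapes. The third and the fourth largest rises belonged to a pair of probesets with the same ID stem, that is, designed on the same sequence. The third went from 7.41, 7.37 and 8.15 to 11.82, 11.77 and 10.51, and the fourth from 8.72, 8.73 and 9.37 to 12.67, 12.67 and 11.94. In both, untreated replicate 3 was the highest and TNF replicate 3 the lowest of its group, so that the groups were nearest to each other in replicate 3 without overlapping. The third was not called when replicates 1 and 2 were averaged under the block (limma adjusted p = 0.0625), within a range from 6.51e-07 to 0.0625 over the 19 settings.

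The fifth and the eleventh rises had the opposite arrangement in the treated group. The fifth went from 5.84, 5.94 and 6.79 to 9.54, 9.52 and 9.84, and the eleventh from 5.99, 5.90 and 6.04 to 8.54, 8.56 and 9.39. TNF replicate 3 was the highest of the TNF arrays in both. Their rises were 3.45 (SE 0.38) and 2.85 (SE 0.29) on the log2 scale, with limma adjusted p-values of 0.00317 and 0.00189.

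The sixth rise started low, at 5.07, 5.39 and 5.35, and reached 9.08, 9.09 and 7.66. The seventh went from 8.62, 8.54 and 8.20 to 12.13, 12.07 and 10.71. The eighth went from 7.09, 6.95 and 6.60 to 10.33, 10.38 and 9.29. In each of these TNF replicate 3 was the lowest of the TNF arrays by more than 1 log2 unit, and each was called in all 19 other settings. The seventh was the one of the first 8 that was also higher on every PACAP array, at 9.29, 9.80 and 9.40, than on every untreated array. That difference of 1.04 did not pass the test (limma adjusted p = 0.082), and the TNF level was higher than the PACAP level by 2.14 (limma adjusted p = 0.0057).

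The ninth and the twelfth rises were much larger in replicates 1 and 2 than in replicate 3. The ninth was close to the bottom of the scale without treatment, at 3.20, 3.23 and 3.41, and stood at 7.18, 7.23 and 4.69 with TNF. Its change was 3.98 and 4.004 in replicates 1 and 2 and 1.28 in replicate 3. It had a limma adjusted p of 0.0329 and was called in 10 of 19 other settings, with adjusted p-values from 6.51e-07 to 0.165. The call ended when any one of the 3 untreated arrays was dropped (limma adjusted p = 0.148, 0.144 and 0.0512 for replicates 1, 2 and 3), and likewise for replicate 1 or 2 of the TNF group (0.133 and 0.142) and of the PACAP group (0.0605 and 0.0654). The twelfth, from 5.72, 5.77 and 4.93 to 9.09, 9.13 and 6.72, was called in 7 of 19 settings and was lost when any one of 8 arrays was left out. TNF replicate 3 was the exception, and the adjusted p-values over the 19 settings ran from 5.64e-06 to 0.186.

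The most even response among the first 16 was that of the fifteenth rise. It went from 8.69, 8.75 and 8.82 to 11.62, 11.57 and 11.36, a rise of 6.81-fold, or 2.77 (SE 0.11) on the log2 scale (limma adjusted p = 2.47e-05). No array of either group stood apart, and the PACAP arrays, at 8.82, 8.71 and 9.04, lay with the untreated ones. The fourteenth rise was similarly even, from 7.59, 7.55 and 7.90 to 10.45, 10.54 and 10.43 (log2 change 2.79, SE 0.16). It fell with PACAP, by 0.65 on the log2 scale (limma adjusted p = 0.028).

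The called falls were smaller than the called rises. The largest called fall went from 8.86, 8.88 and 8.54 to 7.58, 7.05 and 6.91. The groups did not overlap, and the TNF arrays were spread more widely than the untreated arrays. Its level fell by 1.58 (SE 0.21) in log2 units, 2.99-fold (limma adjusted p = 0.00737). Dropping replicate 2 of the untreated group (limma adjusted p = 0.0504) or of the TNF group (0.0524) ended the call; the range over the 19 settings began at 0.000223.

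The second largest called fall went from 6.72, 6.80 and 5.64 to 4.92, 4.97 and 4.65. Untreated replicate 3 was more than 1 log2 unit below the other untreated arrays, and still above each TNF array. The fall of 1.54 (limma adjusted p = 0.0269) was the least stable among these, called in 10 of 19 settings with adjusted p-values from 2.24e-05 to 0.13. It was lost when any single array other than untreated replicate 3 and PACAP replicate 3 was left out. On the PACAP arrays this probeset stood at 4.31, 4.21 and 4.38, below every TNF array, and the direct difference between the treatments did not pass (limma adjusted p = 0.292).

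The third and the eighth falls were called in all 19 other settings. The third went from 6.27, 6.06 and 6.06 to 4.87, 4.98 and 4.79, and fell by 1.25 (SE 0.13, limma adjusted p = 0.00238). The eighth went from 7.85, 7.68 and 7.86 to 6.67, 6.70 and 6.89, and fell by 1.04 (SE 0.12, limma adjusted p = 0.00395). In both, all arrays of a group were within 0.3 log2 units of one another, so the falls stood well clear of the spread. The fourth fall, from 6.67, 6.72 and 7.07 to 5.50, 5.44 and 5.76, was the one of the 8 that differed between the treatments, lower with TNF than with PACAP by 1.16 (limma adjusted p = 0.0123). It was lost without any one of the 3 untreated arrays (limma adjusted p = 0.098, 0.114 and 0.0527) or without TNF replicate 1 or 2 (0.128 and 0.138), and reached 0.000103 at the lowest. The fifth, the sixth and the seventh fell by 1.17, 1.08 and 1.05 and were called in 13, 13 and 18 of 19 settings. Each fit without replicate 1 or 2 of the untreated or TNF group ended the fifth and the sixth calls, and the fit without untreated replicate 3 ended the sixth (limma adjusted p = 0.0509). Over the 19 settings the adjusted p-values of the fifth and the sixth reached 0.121 and 0.146.

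The strong rises began mostly in the middle of the scale, and more of them stood in its upper part after treatment than before. They were chosen on these same values, so their start and end are a description only. When all probesets were divided into 4 bins of equal size by their untreated level, with boundaries at 4.73, 6.71 and 8.57, the bins held 11, 56, 47 and 15 of the 129 strong rises from the lowest to the highest. Before treatment 67 of the 129 were below the median of all probesets, at 6.71, and 42 of those 67 were above the median of the TNF arrays, at 6.67, after treatment. The top quartile of levels held 15 of the 129 before treatment and 61 after it, and the top decile held 2 and 22. Among all rises, the lowest bin contributed 26 of its 6005 probesets (0.433%), the second 1.43%, the third 2.07% and the highest 1.40%. The median size of the called rises was 1.23 in the second bin and 0.68 in the highest. RMA values can be compressed near the bottom of the scale, so the folds of the dimmest probesets may be understated, which was not tested.

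Falls followed another distribution. They made up 0.0333%, 0.317%, 0.849% and 1.10% of the probesets of the 4 bins, rising with the starting level. The median size of the falls was nearly the same in the upper 3 bins, at -0.57, -0.58 and -0.57. A probeset near the bottom of the scale has little room to fall, which may limit what can be seen in the lowest bin. That limit was not tested.

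**Figure D2:**
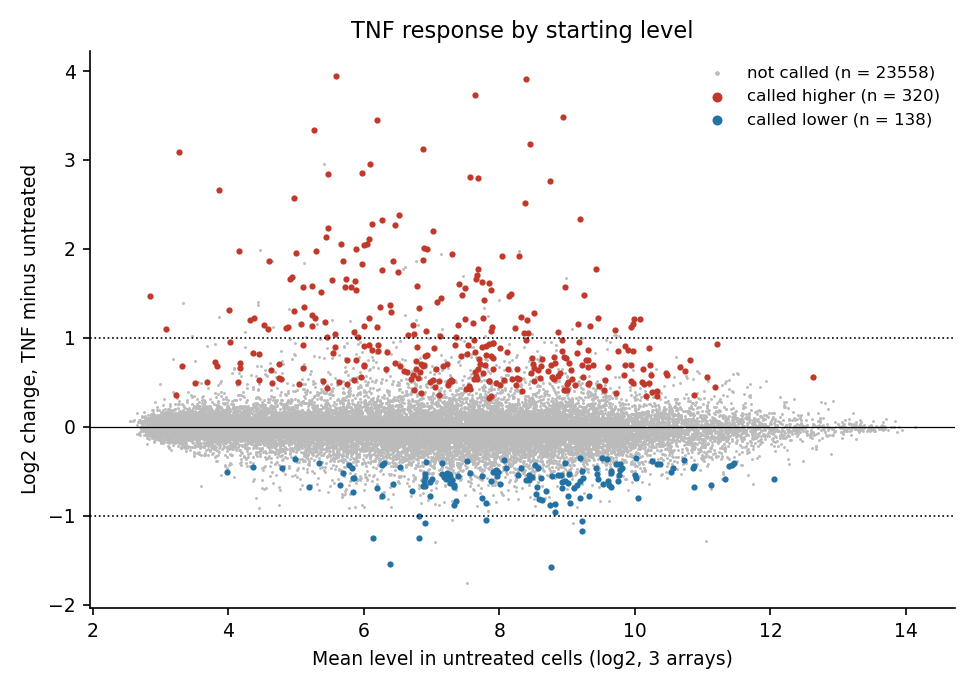
Log2 change, TNF minus untreated, against the mean log2 level in untreated cells for each of the 24016 probesets (points). Red points are the 320 called higher, blue points the 138 called lower, and dotted lines mark changes of 2-fold. Rises of at least 2-fold reach from the low to the upper-middle part of the scale, and few falls pass the lower dotted line.

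The 3 TNF arrays lay entirely above, or entirely below, the 3 untreated arrays for each of the 458 called probesets. Without regard to the test, this was true of 1566 probesets upwards (6.52% of those tested) and 2246 downwards (9.35%). Complete separation was thus seen more often downwards, whereas calls were more often upwards in the fit used here. The larger direction of the calls turned with the setting, to 1524 rises and 1973 falls under array weights and to 1415 and 1499 on replicates 1 and 2 alone.

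Replicate 3 gave a smaller change than replicates 1 and 2 for most strong rises. In the same-numbered pairs of arrays, the interquartile range of the 129 changes ran from 1.30 to 2.17 in replicate 1, from 1.35 to 2.29 in replicate 2 and from 0.92 to 1.78 in replicate 3. At least 2-fold changes were seen in 124, 128 and 89 of them respectively, and the smallest change in replicate 3 was 0.46, so that all 129 moved upwards in each pair. Replicate 3 gave the smallest of the 3 changes for 106 of the 129 (82.2%), against 36.9% of all probesets tested. It gave the largest for 16. For 22 the change in replicate 3 was less than the mean change of replicates 1 and 2 divided by 2. These are the values from which the probesets were called, and they are given as a description.

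The position of replicate 3 within each group was counted on these same values, again as a description. TNF replicate 3 was the lowest of the TNF arrays for 99 of the 129 strong rises (76.7%), against 34.1% of all probesets. Untreated replicate 3 was the highest of the untreated arrays for 73 of them (56.6%), against 42.2% of all. For the 138 falls, TNF replicate 3 was the highest of the TNF arrays for 45 (32.6%), against 47.3% of all, while untreated replicate 3 was the lowest of the untreated arrays for 94 (68.1%), against 35.8% of all. The labels do not say how replicate 3 differed, and its part in the result was not tested beyond the values without it. Without TNF replicate 3 the median change of the 129 was 1.67, without untreated replicate 3 it was 1.53, and on all arrays it was 1.56.

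**Figure D3:**
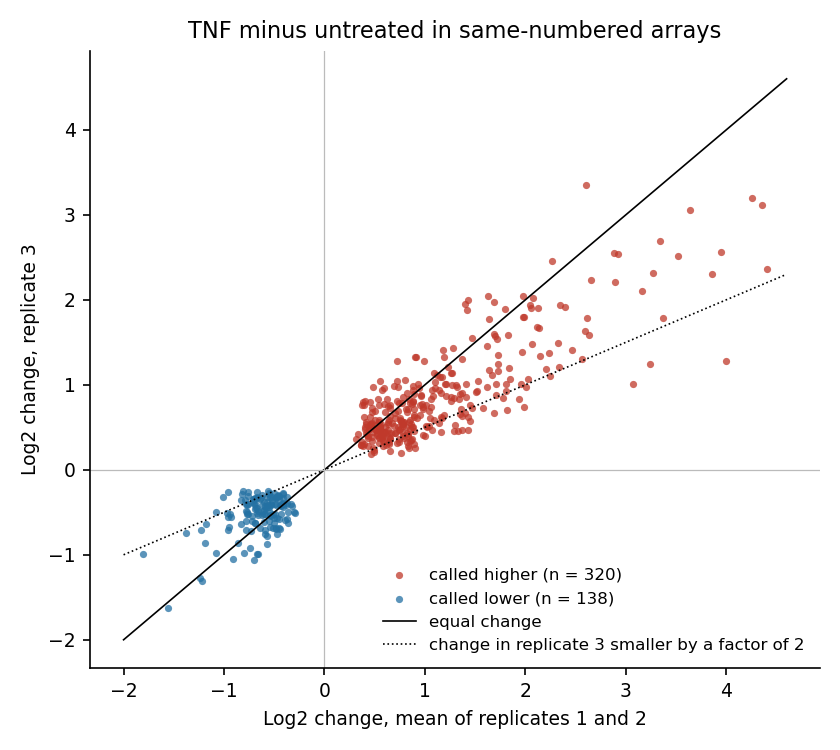
Log2 change, TNF minus untreated, in the replicate 3 arrays against the mean change in replicates 1 and 2, for the 458 called probesets (points, red higher and blue lower). The solid line marks equal changes and the dotted line a change in replicate 3 smaller by a factor of 2. Every point lies in the quadrant of its own direction, and most strong rises lie below the solid line.

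A further 46 probesets differed by at least 2-fold between the group means without passing the test, 41 higher and 5 lower, with limma adjusted p-values from 0.0531 to 0.792. Their arrays were widely spread, with a median SD of 0.626 in the untreated and 0.577 in the TNF group, against 0.176 and 0.265 for the strong rises. The test divides by the spread, so a wider spread in probesets that did not pass follows from the choice. The largest difference among them was 2.96. That probeset stood at 4.76, 4.71 and 6.76 on the untreated and at 8.13, 8.14 and 8.83 on the TNF arrays (limma adjusted p = 0.141). It was high in replicate 3 of both groups, and the groups did not overlap. The largest uncalled fall was larger than any called fall, with a difference of -1.75 (limma adjusted p = 0.161). That probeset went from 7.89, 8.08 and 6.60 to 6.29, 6.21 and 4.825, without overlap. All 41 higher probesets were higher with TNF in each same-numbered pair, against 14.8% of all probesets tested, and 29 of them had groups that did not overlap, against 6.52%. They were chosen for a large difference between the same groups, which favours both outcomes, so nothing is read from these counts. With the replicate number as a block, 34 of the 41 and 4 of the 5 were called. With replicates 1 and 2 averaged under the block 12 and 2 were, and on the 6 untreated and TNF arrays alone 0 and 0 were (limma), with 34 and 4 at an unadjusted p under 0.05.

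Many strong rises were read by more than 1 probeset. By Affymetrix naming, the number that follows the first point of an ID is that of a UniGene cluster, a group of sequences assigned to 1 gene when the array was designed. The 24016 probesets fell into 19291 clusters, of which 3756 were represented by at least 2 probesets. Probesets of a cluster were measured in the same RNA on the same arrays, so they are repeated readings and not replicates. The 129 strong rises came from 108 clusters, and 32 of these had at least 1 other probeset on the array. In 20 of the 32 clusters at least 2 probesets were called higher, and in 17 all of them were. Besides the strong rises, these 32 clusters held 23 other probesets. Of these 7 were called higher (30.4%, against 1.33% of all probesets tested). None was called lower, against 0.575% of all, and with so few probesets nothing is read from that. With an unadjusted limma p under 0.05, 15 were higher and 0 lower. Of the 24016 probesets tested, 2925 had such a p in either direction. The median change of the 23 was 0.36. Over rises of any size, 73 clusters had several probesets on the array and in 27 of them at least 2 were called higher.

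In 17 clusters 2 or 3 probesets rose at least 2-fold, 38 probesets in all, and in 3 of these clusters some shared an ID stem. The sizes of their rises differed within a cluster by 0.25 at the median and by 0.80 at the most. Only called rises of at least 2-fold entered these ranges, which favours narrow ones. The other probesets of the 17 clusters changed by -0.13 to 1.09. The cluster with the third and the fourth rises had changes of 3.73 and 3.49. Another, whose largest rise was the thirteenth, had changes of 2.81 and 2.33, and the cluster of the fourteenth rise had changes of 2.79 and 2.11. One cluster of 3 probesets rose by 2.57, 1.95 and 1.77 from untreated levels of 4.97, 7.29 and 7.69. Its dimmest probeset showed the largest change, and that call was lost in 6 of 19 settings, among them the fits that lacked replicate 1 or 2 of the untreated group (limma adjusted p = 0.141 and 0.142), replicate 1 or 2 of the TNF group (0.129 and 0.142) or replicate 2 of the PACAP group (0.052). The closest pair of readings was 1.57 and 1.56.

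The probesets of these 32 clusters that were not called, 16 in number, had a median untreated level of 5.79, against 6.92 for the strong rises of clusters with several probesets, and 14 of them differed upwards. Their median change was 0.17, against -0.01 for all probesets tested. For the 138 falls, 37 clusters had another probeset on the array, and in 2 of them at least 2 probesets were called lower. The uncalled probesets of those 37 clusters numbered 43. No probeset of the clusters was called higher, against 1.33% of all probesets tested, and with so few probesets nothing is read from that. At an unadjusted limma p under 0.05, 24 of the 43 were lower and 0 higher, against 2925 of all 24016 probesets in either direction. Of the 43, 36 differed downwards, and their median change was -0.28. They had a median untreated level of 6.84, against 7.98 for the falls themselves.

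**Figure D4:**
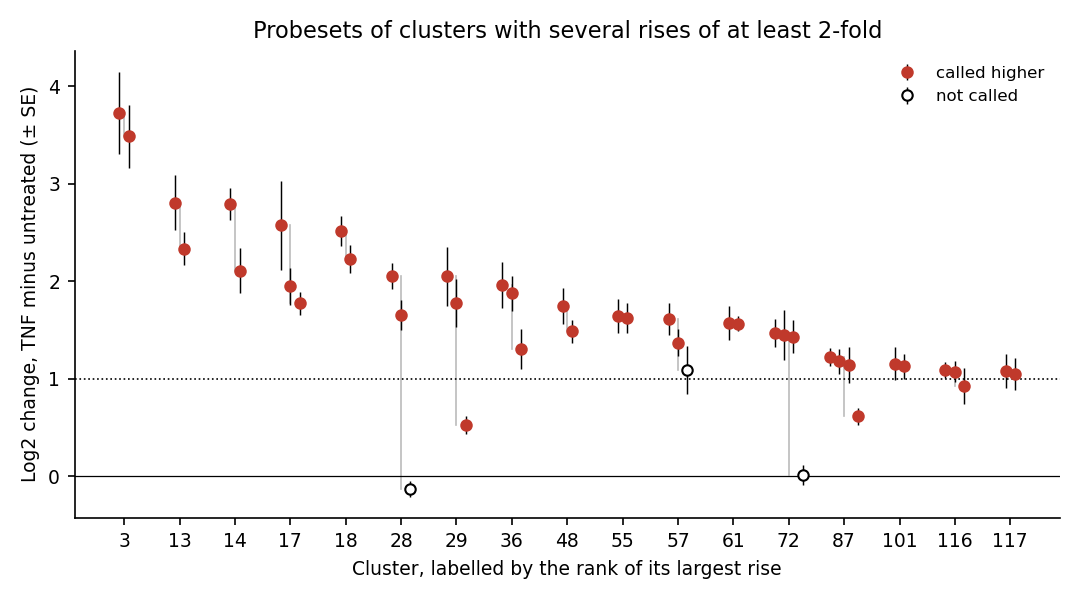
Log2 change, TNF minus untreated, of every probeset in the 17 clusters with at least 2 rises of at least 2-fold; error bars are the moderated SE. Clusters are labelled by the rank of their largest rise. Filled points were called higher and open points were not called; the dotted line marks a change of 2-fold. In most clusters the filled points lie close together, and of the open points 2 lie near 0 and the other, in the cluster labelled 57, near the dotted line.

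The median level of the strong rises on the PACAP arrays was near that in untreated cells, with members on either side of it. Their median level was 6.47, 6.36 and 6.73 on the untreated arrays, 8.43, 8.57 and 8.10 on the TNF arrays and 6.55, 6.45 and 6.70 on the PACAP arrays. The TNF arrays stood apart, and the medians of the PACAP arrays lay within the range of the untreated ones. Single members differed from this. Against the same untreated arrays, 18 of the 129 were called higher and 18 lower with PACAP (limma), where 5.95% and 8.49% of all probesets tested were. The 191 smaller rises had medians of 7.85, 7.85 and 7.87 without treatment, 8.57, 8.68 and 8.50 with TNF and 8.03, 8.05 and 7.86 with PACAP. Of these 191, 46 were called higher and 28 lower with PACAP (limma), against the same 5.95% and 8.49% of all probesets tested. The levels with TNF and PACAP were then compared directly, in the same limma fit. That test uses again the TNF arrays on which the rises were called, which favours passing. Of the 129 strong rises, 109 were higher with TNF than with PACAP and 0 were lower (2 at an unadjusted limma p under 0.05), against 5.10% and 3.97% of all probesets tested in these directions. The remaining 20 did not pass. Of the 191 smaller rises, 128 were higher with TNF and 6 were lower, and 57 did not pass.

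The falls gave another picture. The 138 falls had median levels of 8.55, 8.51 and 8.35 on the untreated arrays, 7.83, 7.85 and 7.80 on the TNF arrays and 7.67, 7.70 and 7.67 on the PACAP arrays. Against untreated cells, their median change was -0.57 with TNF and -0.56 with PACAP. Both changes are measured from the same untreated arrays, so that a high reading on those arrays enters both. With PACAP 102 of the 138 were called lower and 6 higher, against 8.49% and 5.95% of all probesets tested. In the direct comparison 25 of the 138 were lower with TNF, 16 were lower with PACAP and 97 did not pass the test. Of all probesets tested, 3.97% were lower with TNF and 5.10% lower with PACAP. The median difference, TNF minus PACAP, was 0.02. The doses differed, at 10 nM TNF and 100 nM PACAP, and a missing call does not show that the levels were equal.

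**Figure D5:**
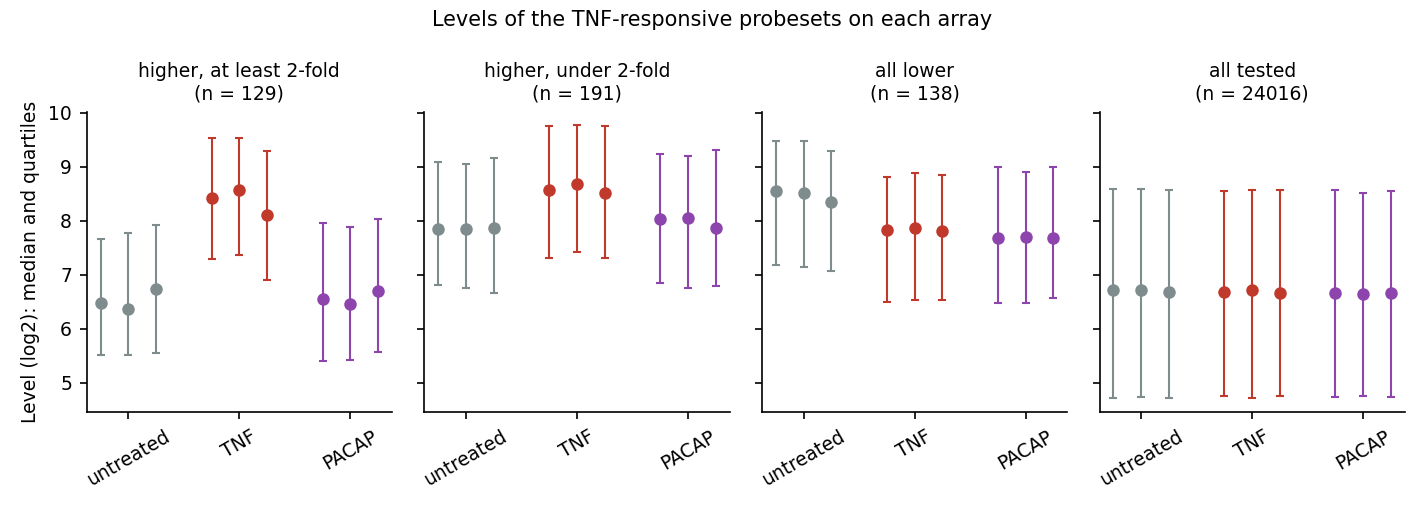
Median (points) and quartiles (bars) of the log2 level over the probesets of a class on each of the 9 arrays, replicates 1 to 3 from left to right within a group. The classes are the 129 rises of at least 2-fold with TNF, the 191 smaller rises, the 138 falls and all 24016 probesets tested. The median of the strong rises is higher on the TNF arrays than on the other arrays, and the median of the falls is lower on both the TNF and the PACAP arrays than on the untreated arrays; single probesets differ from these medians.

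The array also carries control probesets whose IDs give a gene name, 18 probesets for 6 genes: actin and gapd, which encode a cytoskeletal protein and a glycolytic enzyme, the translation factors ef1a and eIF-4E, Cyph and GST. Added to the fit, they differed between TNF-treated and untreated cells by -0.21 to 0.16 on the log2 scale. None was called (limma, lowest adjusted p = 0.567), and 0 had an unadjusted p under 0.05. Of all 24016 probesets tested, 1.91% were called and 2925 had such an unadjusted p. With only 18 control probesets, nothing is read from these counts.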

How the data were processed

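Total RNA from cultured cells, 5 ug per one-cycle biotin labelling reaction per the labels' protocols, was hybridised to 9 arrays. The authors deposited log2 expression values, 1 per probeset and array, made with Affymetrix Expression Console and RMA per the submitters' processing notes; versions: not given in the sources used here. The number of arrays limits the precision. Array medians were 6.65 to 6.72.

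Groups and replicate numbers were taken from sample titles. Of 24128 probesets, 112 controls (IDs starting with AFFX) were left out and 24016 tested. No ID matched the gene table (0 matches), so the fixed lists of genes and cell type markers could not be applied. Probesets were named by the rule for that case, the 2 largest called rises and 2 largest called falls. Others are described by rank among the called rises or the called falls. The comparison, lists and rules were chosen with earlier results of these data known. Ranks other than these and the control probesets were chosen after their values were seen.

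Group means were fitted to all 9 arrays (6 residual degrees of freedom) with limma 3.58.1 in R 4.3.3, two-sided, with Benjamini-Hochberg adjustment within each contrast. The fit was tested on simulated arrays with independent noise, without the correlation between replicates seen in the real arrays. How that correlation affects the calls was not simulated. Folds are powers of 2 of the differences between group means. SE are moderated standard errors.

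The replicate numbers were used to pair arrays in the same-numbered changes and in the replicate block. The main fit did not use them, so p-values given without a setting are unpaired. Deviations from group means correlated between same-numbered untreated and TNF arrays at 0.42, 0.46 and 0.59. Where PACAP arrays were included, the range was 0.23 to 0.65, and all were over the threshold of 0.1. No label explains the numbers, and they do not tell replicates 1 and 2 apart: untreated replicate 2 correlated with TNF replicate 1 at 0.49 and untreated replicate 1 with TNF replicate 2 at 0.38. Replicates 1 and 2 correlated with each other across probesets at 0.9985 (untreated) and 0.998 (TNF), above their correlations with replicate 3 (0.988 to 0.99). Whether they came from 1 culture is not stated. If they did and replicate 3 was a separate culture, n would be 2 per group, which the fit with both averaged stands for. The design text's term, technical repeats, also allows 1 culture for all arrays of a group. In that case n would be 1 per group, and no fit here covers it.

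The 19 settings through which calls were followed are the 6-array fit, the replicate block, the block with replicates 1 and 2 averaged, replicates 1 and 2 alone, quantile, median and cyclic loess normalization, array weights, a robust prior with an intensity trend, leaving out each of the 9 arrays, and the control probesets in the fit, the last added after seeing the data. Filters on dim probesets were tried as well.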

Additional observations from a re-analysis of the deposited data

How the results depend on the processing

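The count of calls moved by more than 1.5 times in several settings. On the 6 untreated and TNF arrays alone 245 probesets were called (183 higher, 62 lower). With the replicate block 1280 were called (674 and 606), and with replicates 1 and 2 averaged as well 137 (122 and 15). With replicates 1 and 2 alone 2914 were called (1415 and 1499), of which 270 at least 2-fold (231 and 39). With array weights 3497 were called (1524 and 1973), of which 242 at least 2-fold (214 and 28). With only probesets above the median level, 88 were called at least 2-fold (84 and 4) and 68 strong rises were higher with TNF than with PACAP; fewer probesets were tested there. Leaving out 1 array gave 120 to 721 calls (107 to 425 higher, 12 to 310 lower) and 78 to 189 of at least 2-fold (75 to 180 higher, 3 to 28 lower), and 98 to 115 of the strong rises were higher with TNF than with PACAP. The cause of these shifts was not tested. Quantile, median and loess normalization, the minimum level of 5, the intensity trend and the added control probesets kept the counts of calls within 1.5 times. Of the calls, 69.9% were rises in the unblocked fit and 52.7% with the block; the share ran from 43.6% (array weights) and 48.6% (replicates 1 and 2 alone), where falls were the majority, to 90.0% (without untreated replicate 2). Over all settings the median change of the strong rises ran from 1.44 to 1.69, and none of the 4 named probesets changed direction. These probesets were chosen for their change on the same arrays, with TNF arrays apart from untreated ones. Leaving out or averaging arrays could thus not reverse them, and the replicate block leaves the estimated change as it was. Nothing is read from the kept directions. The replicate block ended no call of the 4 named probesets, whereas with replicates 1 and 2 averaged as well the second largest fall lost its call (limma adjusted p = 0.104).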
